A study of Mus musculus with 12 samples.

Results

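The heat shock chaperones analysed here are 10 mouse genes: Hspa1a, Hspa1b, Hspa8, Hsph1, Dnajb1, Dnaja1, Hsp90aa1, Hspd1, Hspe1 and Hsf1. Every array probe set, a group of short probes that reads 1 transcript, was taken when the platform's gene table gave it one of these symbols, alone or among several. This rule found 9 of the 10 genes, among 19324 genes named on the array, with 23 of its 45037 probe sets. None of the 23 was shared with another symbol. Hsf1, the heat shock transcription factor, had no probe set under the rule and was not analysed here. The mean log2 value of 21 of the 23 probe sets was at least 5, the minimum for testing, while the other 2, both of Hsp90aa1, lay between 2.48 and 3.02 on all arrays. The probe set of a gene that had the highest mean is called its lead probe set.

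Heat shock chaperones bind unfolded or partly folded proteins and help them reach or regain their shape. Hsp70 proteins work in cycles of ATP hydrolysis that J-domain proteins start and nucleotide exchange factors such as Hsp110 end, and Hsp90 takes over many clients, among them kinases and steroid receptors. Under stress, trimers of HSF1 bind repeated GAA units, read in alternating orientation, upstream of these genes and raise their transcription. In the thymus, where developing T cells divide and die in large numbers, the same proteins are also part of ordinary protein folding.

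The arrays measured RNA from whole thymus of 12 mice aged 7 to 8 weeks, in 4 groups of 3 biological replicates. The groups were XX female and XY- female, without Sry, the testis-determining gene, and XXsry male and XY-sry male, which carried it. According to the labels' protocols, the mice were killed by cervical dislocation and the dissected thymus was frozen in liquid nitrogen. The labels name no strain, origin of the Sry copy or litter. The values were log2 intensities that the authors had normalized. The array medians lay between 4.02 and 4.10, and the number of arrays limits the precision.

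The labels matched the marker genes. The Sry probe set lay between 5.23 and 5.65 in the 6 mice without Sry and between 6.74 and 7.20 in the 6 mice with it. Xist, the RNA of the inactive X, lay between 11.10 and 11.63 in the XX and XXsry groups and between 3.41 and 4.19 in the XY- and XY-sry groups, and the Y-linked Eif2s3y lay between 1.77 and 2.28 in the former and between 7.14 and 8.17 in the latter. Of 9 thymocyte markers 8 were tested, and their mean log2 value lay between 9.99 and 10.12 on the 12 arrays. That mean had r = -0.56 with the mean of the chaperones (n = 12), and 1 of the 8, Rag2, a recombinase gene of developing lymphocytes, was lower with Sry, by a log2 difference of -0.19 ± 0.04 (SE, adjusted p = 0.0222). Their part in the results below was not tested. In whole tissue, fewer cells of a type and less RNA per cell cannot be told apart.

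The bases upstream of the members' start sites are shown before the values. Promoter sequences came from RefSeq (GRCm38.p6), which gave 12 windows for 7 of the genes. Hspa8, Hsp90aa1 and Hsf1 had none in the table. The 250 bases before each start were searched on both strands for a pair of inverted GAA units, GAANNTTC or TTCNNGAA, which can overlap each other. Of the 7 genes 6 held a pair in at least 1 window, all but Dnajb1, against 14.5% of 27025 genes (7 of 12 windows against 12.8% of 32851 windows). The longer run of alternating units, TTCNNGAANNTTC or GAANNTTCNNGAA, occurred in 2 of the 7 genes, Hspd1 and Hspe1, against 0.514% of genes. These 2 genes share the run in 1 stretch, and the windows of Hspa1a and Hspa1b are alike at 247 of 250 bases. Such matches are not separate cases, and the members were chosen as heat shock genes. A match describes the letters and not a binding site. Whether the matches bear on the values of the members was not tested.

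The stress-inducible Hsp70 genes Hspa1a and Hspa1b are neighbours on the minus strand of chromosome 17. RefSeq places Hspa1b at chr17:34956429-34959238 and Hspa1a at chr17:34969359-34972156. Their upstream windows, at chr17:34959239-34959488 for Hspa1b and chr17:34972157-34972406 for Hspa1a, are shown because they are alike at 247 of 250 bases and differ at 3. The capitals mark the pair of units, at positions -104 to -97 from the start in both.
Hspa1a: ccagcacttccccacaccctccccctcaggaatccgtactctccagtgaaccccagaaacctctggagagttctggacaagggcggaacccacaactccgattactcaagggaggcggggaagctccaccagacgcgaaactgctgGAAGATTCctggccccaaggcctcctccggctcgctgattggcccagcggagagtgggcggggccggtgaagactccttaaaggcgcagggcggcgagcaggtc
Hspa1b: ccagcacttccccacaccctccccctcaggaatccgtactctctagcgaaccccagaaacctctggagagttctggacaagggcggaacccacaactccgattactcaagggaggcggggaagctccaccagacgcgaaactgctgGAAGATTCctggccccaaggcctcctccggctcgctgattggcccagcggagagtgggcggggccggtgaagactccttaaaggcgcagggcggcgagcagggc

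The mitochondrial chaperonin genes Hspd1 and Hspe1 lie head to head on chromosome 1, at chr1:55077833-55088243 on the minus strand and chr1:55088148-55091317 on the plus strand. One stretch, chr1:55088053-55088082, holds the longer run. This stretch falls in the upstream window of Hspe1 and in that of an Hspd1 start inside the gene bounds. It is printed on the plus strand, where the run is at positions -89 to -72 from the start of Hspe1, and it is at -144 to -127 from a start of Hspd1. Dnaja1 (chr4:40722333-40722362, plus strand, pair at -124 to -117) and Hsph1 (chr5:149636351-149636380, minus strand, pair at -33 to -26 from a start) are shown for comparison, since each had 1 pair only. The windows before the outer start of Hspd1 and before the other starts of Dnaja1 held 0 pairs. Capitals mark the units and the bases between them.
Hspe1 and Hspd1: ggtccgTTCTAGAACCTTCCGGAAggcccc
Dnaja1: aaaagcctctaGAAAATTCtacgaggctcg
Hsph1: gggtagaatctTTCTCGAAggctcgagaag

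Among the 21 tested chaperone probe sets 0 passed the test in each of 9 comparisons between the groups (limma, Benjamini-Hochberg adjusted p under 0.05 over 17925 probe sets). The 9 comparisons share their arrays. The closest was Hspa1a, which was 0.67 ± 0.22 (SE) higher on the log2 scale in the 6 mice with Sry than in the 6 without (adjusted p = 0.0843). Its only probe set had a mean of 5.435, near the minimum of 5, and was not tested at a stricter minimum of 6. Most of the variation of the lead probe sets lay between mice of the same group. The log2 values of most lead probe sets rose and fell together from array to array, in an order that cut across the groups. They spanned up to 3.27-fold between the highest and the lowest array for Hspa1a and 3.20-fold for Hsph1. Dnajb1 followed the others less closely (median r = 0.43 over its 8 pairs, beside 0.85 over the other 28 pairs).

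**Figure D1:**
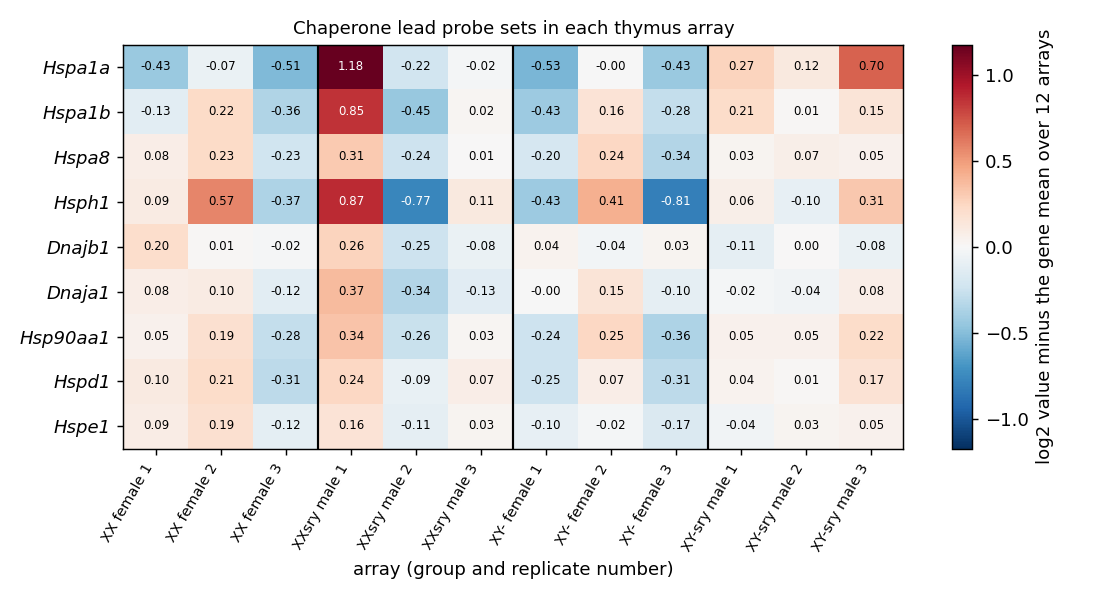
Log2 value of each chaperone's lead probe set (rows) in each of the 12 arrays (columns), minus the gene's mean over the arrays, with the value printed in each cell and black lines between the groups. XXsry male 1 is red in all 9 rows and XX female 3 and XXsry male 2 are blue in all 9, so that columns differ more than groups do.

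Hspa1a encodes an Hsp70 that cells make under stress. Its log2 values were 5.00, 5.36 and 4.92 in the XX mice and 4.90, 5.43 and 5.00 in the XY- mice. They were 6.61, 5.21 and 5.41 in the XXsry mice and 5.70, 5.55 and 6.13 in the XY-sry mice. The 3 XY-sry mice and 1 of the XXsry mice lay above all 6 mice without Sry, while the other 2 XXsry mice overlapped with them. The group means were 5.09 ± 0.23 (SD, n = 3 here and below) in XX, 5.74 ± 0.76 in XXsry, 5.11 ± 0.28 in XY- and 5.79 ± 0.30 in XY-sry. The difference was 0.65 ± 0.30 (SE) within the XX complement (adjusted p = 0.425) and 0.68 ± 0.30 within XY- (adjusted p = 0.179). Without the first XXsry mouse the difference between mice with and without Sry was 0.45, and over 22 alternative analyses it lay between 0.45 and 0.92. Its adjusted p over these lay between 0.0114 and 0.175 and was under 0.05 only with array weights. With the actin 3' minus 5' signal as a covariate the difference within XY- was 1.19, with an adjusted p of 0.17.

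Hspa1b, the neighbouring inducible Hsp70, had 3 probe sets, which followed each other closely over the arrays (r with the lead probe set 0.98 and 0.96, n = 12). The 2 genes are nearly identical in sequence, so a probe set named for one may also read the other. The lead probe set gave 8.39, 8.74 and 8.16 in XX, 9.37, 8.07 and 8.54 in XXsry, 8.09, 8.68 and 8.24 in XY- and 8.73, 8.53 and 8.67 in XY-sry. The highest and the lowest of all 12 values were both from XXsry mice, and the 4 groups overlapped. The mice with Sry were 0.27 ± 0.19 (SE) higher (95% interval -0.15 to 0.68, adjusted p = 0.416). The other probe sets gave 0.35 ± 0.18 (adjusted p = 0.261) and 0.42 ± 0.20 (adjusted p = 0.211).

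Hspa8 encodes the constitutive Hsp70, which also strips clathrin from vesicles. Its lead log2 values were 12.14, 12.29 and 11.83 in XX, 12.37, 11.82 and 12.07 in XXsry, 11.86, 12.30 and 11.72 in XY- and 12.09, 12.13 and 12.11 in XY-sry. The 3 XY-sry mice lay within 0.04 of each other, inside the range of every other group. The difference between mice with and without Sry was 0.08 ± 0.12 (SE, adjusted p = 0.74).

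A second Hspa8 probe set, 1431182_at, had a mean of 7.04 and followed the lead probe set less closely than the others did (r = 0.39 against 0.90 and 0.89, n = 12). It gave 6.97, 6.90 and 7.10 in XY- and 7.43, 7.59 and 7.19 in XY-sry, so that these 2 groups did not overlap. In XX it gave 6.90, 7.03 and 6.72 and in XXsry 7.18, 6.37 and 7.06. The 3 XY-sry mice thus lay above all mice of the other 3 groups, which overlapped with each other, but the lowest XY-sry value was 7.19 against 7.18 in XXsry. The share of all probe sets whose groups do not overlap is not given, here or for the genes below. At an unadjusted p under 0.05 (limma), 26.1% of all probe sets differed between XY-sry and XY-. XY-sry was 0.41 ± 0.18 (SE) above XY- (adjusted p = 0.168). Among the alternatives its adjusted p was under 0.05 only with array weights (0.0442) and without the second XXsry mouse (0.0443). That mouse is in neither group, and the difference without it was again 0.41. XX minus XY-sry was -0.52 ± 0.18 (adjusted p = 0.174), and XXsry minus XY-sry was -0.53 ± 0.18 (adjusted p = 0.347).

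Hsph1 encodes Hsp110, the nucleotide exchange factor that resets Hsp70, and varied most of the 9 genes within groups. Its log2 values were 8.65, 9.13 and 8.19 in XX, 9.43, 7.79 and 8.67 in XXsry, 8.13, 8.97 and 7.75 in XY- and 8.62, 8.46 and 8.87 in XY-sry. The XXsry group alone spanned nearly the whole range of the 12 arrays. The mice with Sry were 0.17 ± 0.28 (SE) higher, with a 95% interval from -0.43 to 0.77 (adjusted p = 0.753). Its second probe set followed the lead one (r = 1.00).

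The J-domain genes Dnajb1 and Dnaja1 encode Hsp40 proteins that hand clients to Hsp70. Dnajb1 gave 9.48, 9.29 and 9.26 in XX, 9.54, 9.03 and 9.20 in XXsry, 9.32, 9.24 and 9.31 in XY- and 9.17, 9.28 and 9.20 in XY-sry. Dnaja1 gave 10.77, 10.79 and 10.57 in XX, 11.06, 10.35 and 10.56 in XXsry, 10.69, 10.84 and 10.59 in XY- and 10.67, 10.65 and 10.77 in XY-sry. For both lead probe sets the first XXsry mouse was the highest and the second the lowest of the 12. A Dnaja1 probe set with a lower mean, 1459835_s_at, gave 8.56, 8.94 and 8.66 in XX, above the range of 8.37 to 8.49 in XY- and XY-sry, while XXsry ran from 8.21 to 8.82. It was 0.28 ± 0.13 (SE) higher in XX than in XY- (adjusted p = 0.494) and 0.32 ± 0.13 higher in XX than in XY-sry (adjusted p = 0.266). The differences between mice with and without Sry were -0.08 ± 0.08 (SE) for Dnajb1 (adjusted p = 0.557) and -0.03 ± 0.10 for Dnaja1 (adjusted p = 0.886).

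Hsp90aa1 encodes the inducible cytosolic Hsp90. Its lead log2 values were 11.13, 11.27 and 10.80 in XX, 11.42, 10.82 and 11.11 in XXsry, 10.84, 11.33 and 10.72 in XY- and 11.13, 11.13 and 11.30 in XY-sry. All 4 groups overlapped, and the mice with Sry were 0.14 ± 0.13 (SE) higher (adjusted p = 0.542). Another Hsp90aa1 probe set, 1437497_a_at, was highest in the second XY- mouse at 10.32, against 9.05 to 9.87 in the other 11.

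Hspd1 and Hspe1 encode Hsp60 and its lid Hsp10, which fold proteins inside mitochondria. Hspd1 gave 10.54, 10.65 and 10.13 in XX, 10.68, 10.35 and 10.51 in XXsry, 10.19, 10.51 and 10.13 in XY- and 10.48, 10.45 and 10.61 in XY-sry. Hspe1 gave 9.85, 9.95 and 9.64 in XX, 9.92, 9.65 and 9.79 in XXsry, 9.66, 9.74 and 9.59 in XY- and 9.72, 9.79 and 9.81 in XY-sry. The XY- group had the lowest mean for both genes, at 10.28 ± 0.20 for Hspd1 and 9.66 ± 0.08 for Hspe1, and its range overlapped with that of every other group for both lead probe sets. The second Hspe1 probe set, 1422579_at, gave 8.22, 8.26 and 8.13 in XY-, all below the 8.51, 8.31 and 8.39 of XXsry, with a difference of 0.20 ± 0.08 (SE, adjusted p = 0.29). The mice with Sry were 0.16 ± 0.10 (SE) higher for Hspd1 (adjusted p = 0.35) and 0.04 ± 0.06 higher for Hspe1 (adjusted p = 0.724).

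**Figure D2:**
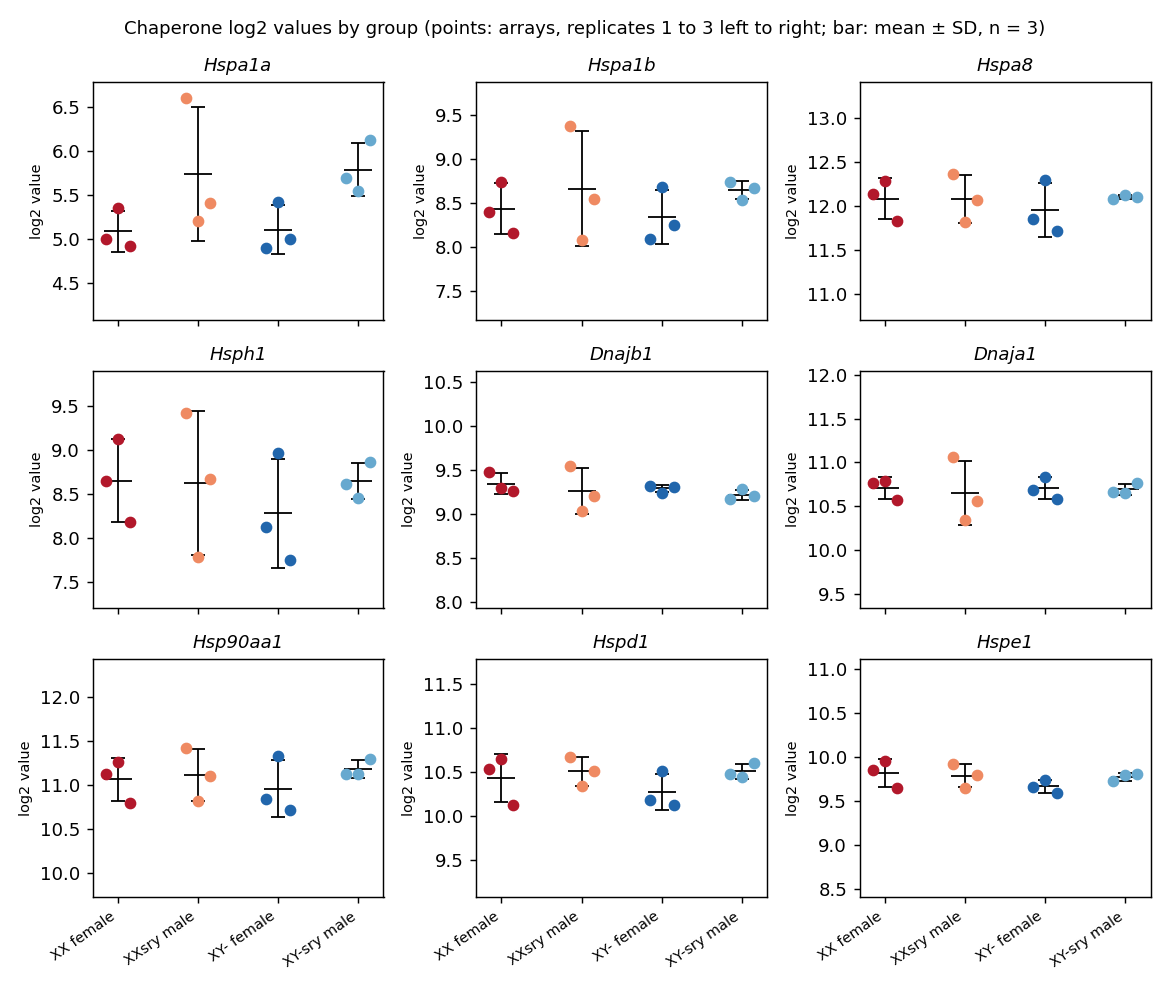
Log2 values of the lead probe sets by group, 1 panel per gene with axes of equal length. Points are single arrays in replicate order, the wide bar is the group mean and the error bar 1 SD (n = 3). The groups overlap in every panel except that of Hspa1a, where the XY-sry mice lie above the XX and XY- mice, and the 3 XY-sry mice lie closest together in 7 of 9 panels.

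The member counts are set here beside those over all probe sets. For mice with against mice without Sry, 0 of 21 member probe sets passed, where 6.56% of all tested probe sets did (1176, of them 708 higher with Sry). At an unadjusted p under 0.05 there was 1 of 21, Hspa1a, against 24.9% of all. The median difference of the 9 lead probe sets was 0.14, beside 0.02 over all tested. Within the XY- complement the count was 0 of 21 against 8.64% of all, with 2 at an unadjusted p under 0.05, Hspa1a and the Hspa8 probe set 1431182_at, against 26.1% of all. Within XX it was 0 of 21 against 0.742%, with 0 at an unadjusted p under 0.05 against 12.1% of all, and a smallest adjusted p of 0.425.

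Between the XX and the XY- complements 0 of 21 passed, against 0.0893% of all, with a smallest adjusted p of 0.998. At an unadjusted p under 0.05 there were 2 of 21 (9.52%), against 4.25% of all. They were the Hspa8 probe set 1431182_at, at -0.32 in XX minus XY- (95% interval -0.60 to -0.04), and the second Hspe1 probe set, at 0.14 (0.01 to 0.27). The lead differences ran from -0.03 for Hspa1a to 0.18 ± 0.28 (SE) for Hsph1, whose 95% interval reached from -0.43 to 0.78. Without Sry the count was 0 of 21 against 0.0781% of all (0 at an unadjusted p under 0.05, against 10.6%), and with Sry 0 of 21 against 0.128% (1 at an unadjusted p under 0.05, against 8.55%). A test of whether the 2 complements differed in their response to Sry gave 0 of 21 against 1.29% of all (0 at an unadjusted p under 0.05, against 13.4%, and smallest adjusted p = 0.511).

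The pairs of groups that differ in both respects gave the same count. In XX against XY-sry 0 of 21 passed, where 1.39% of all did, with 3 at an unadjusted p under 0.05 against 16.3% of all. In XXsry against XY- 0 of 21 passed, where 0.999% of all did, with 1 at an unadjusted p under 0.05 against 14.6%. Hspa1a was 0.70 ± 0.30 (SE) lower in XX than in XY-sry on the log2 scale (adjusted p = 0.279). The standard error of the difference between mice with and without Sry was largest for Hsph1 (0.28) and smallest for Hspe1 (0.06).

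**Figure D3:**
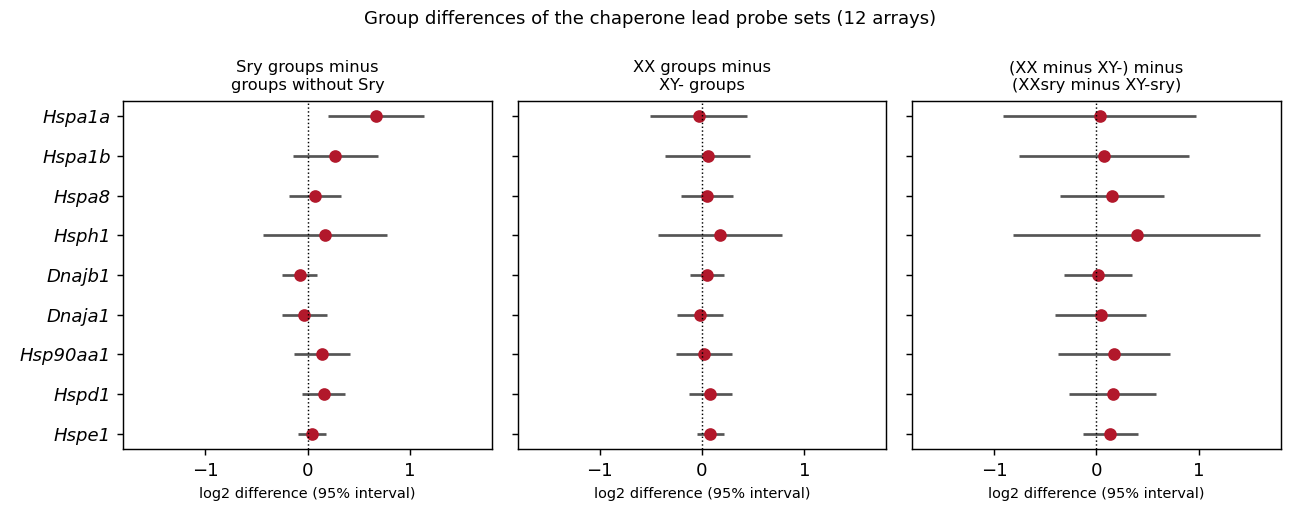
Log2 difference of each lead probe set (point) with its 95% interval from limma (line) for mice with minus mice without Sry, for the XX minus the XY- groups, and for the interaction. For Hspa1a the first interval, 0.20 to 1.14, lies above 0 before adjustment, while its adjusted p is 0.0843, and all other intervals include 0.

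The members differed widely between mice of the same group. The within-group SD, with 8 residual degrees of freedom, had a median of 0.236 over the 9 lead probe sets and of 0.097 over all 17925. It was 0.576 for Hsph1, larger than in 99.8% of tested probe sets, 0.447 for Hspa1a (99.7%) and 0.395 for Hspa1b (99.4%). Hsp90aa1 (0.256) and Hspa8 (0.236) also lay above the 95th percentile of 0.214. Dnaja1 (0.205), Hspd1 (0.194), Dnajb1 (0.147) and Hspe1 (0.113) lay between the median and that percentile. Without the first XXsry mouse the medians were 0.216 and 0.096, and 4 lead probe sets in place of 5 lay above the 95th percentile. This is a description of chosen genes and was not tested.

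**Figure D4:**
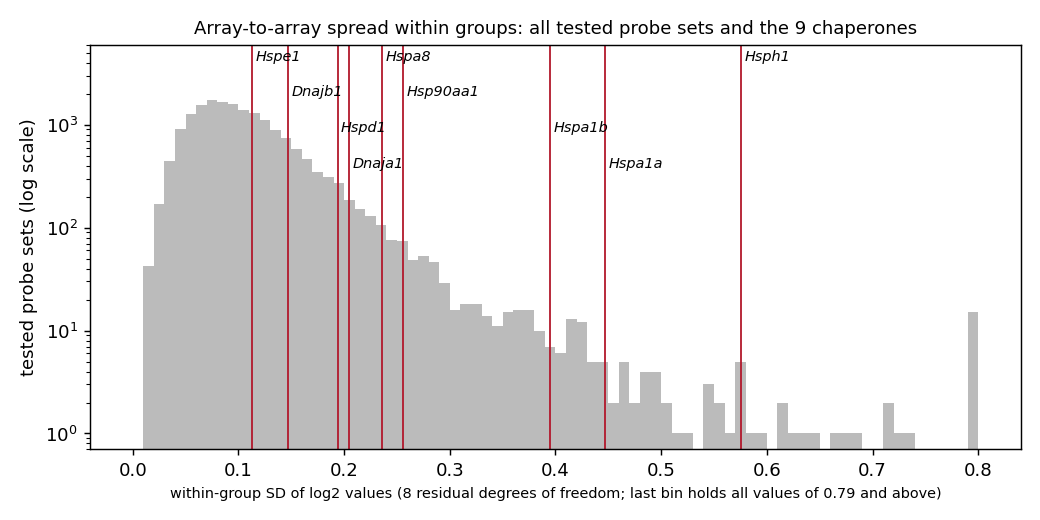
Number of tested probe sets (log axis) by within-group SD of their log2 values, in bins of 0.01, with red lines at the lead probe sets of the 9 chaperones. Hsph1, Hspa1a and Hspa1b lie far in the right tail, at 0.576, 0.447 and 0.395, while the median of all probe sets is 0.097.

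For most lead probe sets, differences between group means made up a small share of the variation. It was 13.1% in the median of the 9 lead probe sets and 37.2% in the median of all tested. Hspa1a was the only lead probe set above that median, at 45.6%, and the lead probe set of Dnaja1 was the lowest at 1.6%. Other probe sets of the members lay above it too: 1431182_at of Hspa8 had 51.4%, 1422579_at of Hspe1 44.8% and 1459835_s_at of Dnaja1 39.4%. The median SD of the lead probe sets was 0.235 in XX, 0.300 in XXsry, 0.282 in XY- and 0.085 in XY-sry. The XY-sry mice were the narrowest group for 7 of 9 genes and the XXsry mice the widest for 5, and whether the groups differ in spread was not tested with 3 mice each.

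The same mice were high or low for nearly every chaperone. The first XXsry mouse was the highest of 12 for 8 of 9 genes, all but Hspe1, and on average 0.51 above the gene means on the log2 scale. The second XXsry mouse was the lowest of its group for 9 of 9 genes, with an average of -0.30. In XX the second mouse was the highest of its group for 8 genes and the third the lowest for 9. In XY- the second was the highest for 8 and the third the lowest for 6. High and low mice thus occurred side by side in the XX, XXsry and XY- groups.

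Over the 36 pairs of lead probe sets the median Pearson r across the 12 arrays was 0.79, from 0.22 to 0.97. Points that share an array share its RNA, hybridization and scaling, so r is given as a description. Hspa8 and Hsp90aa1 had r = 0.97, Hspa8 and Hsph1 0.96, Hspd1 and Hspe1 0.91, and Hspa1a and Hspa1b 0.88. The 8 pairs with Dnajb1 had a median of 0.43 and the other 28 a median of 0.85. With the group means removed, the median was 0.86 and the lowest 0.40. Without the first XXsry mouse the median was 0.72 and the lowest -0.40, for a pair with Dnajb1, and leaving out any other array gave medians from 0.77 to 0.82. Between the lead probe sets and the other 9487 tested genes the median r was -0.02, and 0.46% of these values exceeded 0.8.

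**Figure D5:**
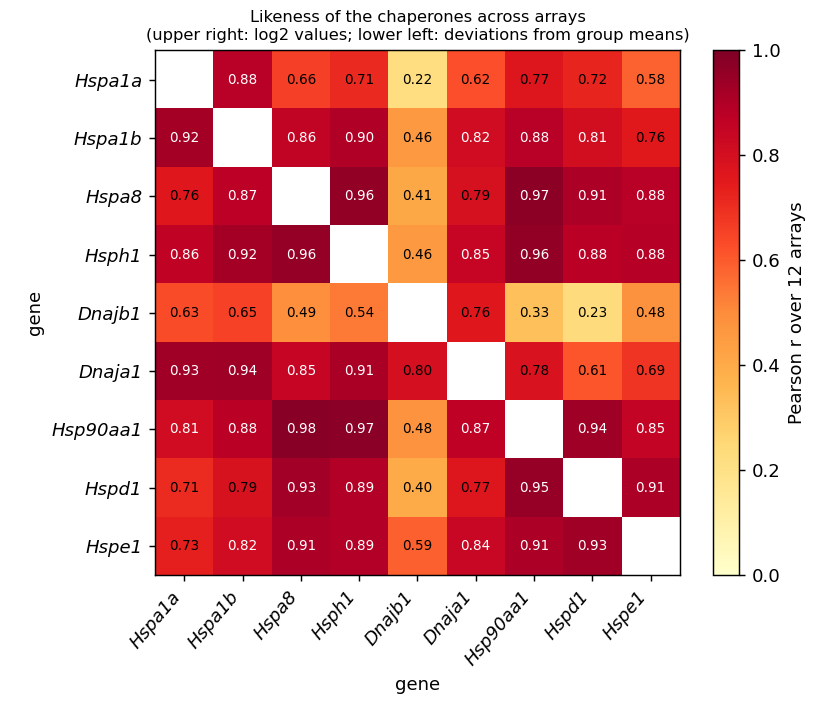
Pearson r between lead probe sets over the 12 arrays, for log2 values in the upper right and for deviations from the group means in the lower left. Hspa8, Hsph1 and Hsp90aa1 form the closest set, at 0.96 to 0.97 in the upper right, and the row and column of Dnajb1 are the palest.

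The genes whose log2 values ran most like those of Hspa8 over the 12 arrays were Ahsa1 (r = 0.968), Stip1 (0.960), Elavl1 (0.950), Ipo7 (0.941) and Fubp1 (0.938). Ahsa1 activates the Hsp90 ATPase, and Stip1 links Hsp70 to Hsp90. For Hspd1 they were Cct5 (r = 0.970), a subunit of the cytosolic chaperonin TRiC, Fkbp4 (0.959), an Hsp90 co-chaperone of steroid receptors, Ahsa1 (0.948), Ipo7 (0.947) and Xpo1 (0.936). For Hspa1b they were Bicd2 (r = 0.948), Ubqln1 (0.873), Slc5a3 (0.871), Ahsa1 (0.867) and Ss18 (0.866). When the 2 arrays farthest from the chaperone's median were left out, these 15 values lay between 0.711 and 0.957. The first XXsry mouse was the highest alone for 9 of these 12 genes, tied with the second XX mouse for Elavl1 and with the third XY-sry mouse for Cct5, and lay below the second XX mouse for Xpo1. None of the 12 passed the test for mice with against mice without Sry.

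Other chaperones and their partners were read from 9 lists with 77 genes, of which 63 were tested. In the lists the mean of the tested Hsp90 co-chaperones (6 of 9 genes) followed the mean of the members over the arrays with r = 0.96, and that of the 8 TRiC subunits with r = 0.83. The mean of the 13 endoplasmic reticulum chaperones gave r = 0.27 and that of the 7 mitochondrial chaperones and proteases 0.25. The other Hsp70 and Hsp110 genes (5 of 8 tested) gave 0.67, and other J-domain proteins (12 of 13) gave 0.61. The nucleotide exchange and degradation partners of Hsp70 (9 of 9) gave 0.6. Small heat shock proteins (2 of 6) gave 0.25, and the list of other heat shock factors and their regulator, with 1 of 4 genes tested, gave -0.57. The median within-group SD was 0.168 in the Hsp90 list, 0.079 in TRiC, 0.106 in the endoplasmic reticulum list and 0.070 in the mitochondrial list.

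Between mice with and without Sry, 2 of the 63 partners passed, both higher with Sry (3.17%, beside 6.56% of all probe sets), and 0 were lower. Bag3, a nucleotide exchange factor that sends Hsp70 clients to autophagy, gave 6.02, 5.77 and 6.08 in XX, 5.82, 5.66 and 5.93 in XY-, 6.57, 6.26 and 6.20 in XXsry and 6.37, 6.25 and 6.61 in XY-sry. All 6 mice with Sry lay above all 6 without, and the difference was 0.50 ± 0.09 (SE, adjusted p = 0.00838). It passed in 21 of 22 alternatives, and with the actin 3' minus 5' signal as a covariate the adjusted p was 0.0509. Bag6, a chaperone of tail-anchored and misplaced membrane proteins, was 0.17 ± 0.04 higher (adjusted p = 0.0255) and missed the threshold in 8 of 22 alternatives, 6 of which left out 1 array.

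Within the XY- complement 4 of the 63 were higher with Sry and 0 lower (6.35%, beside 8.64% of all). Hspa9, the Hsp70 of mitochondria, gave 8.41, 8.41 and 8.40 in XY- and 8.74, 8.67 and 8.72 in XY-sry, which did not overlap, with a difference of 0.30 ± 0.06 (SE, adjusted p = 0.00964). It passed in 21 of 23 alternatives. Bag3 was 0.61 ± 0.12 higher (adjusted p = 0.014), and it passed without each array but the third XY-sry mouse. Dnajc2, a J-domain protein of the ribosome, was 0.17 ± 0.05 higher (adjusted p = 0.0427) and Bag6 0.19 ± 0.05 (adjusted p = 0.0451). Dnajc2 and Bag6 each kept the call in 1 of the 12 fits that left out an array. All 4 calls were lost with the actin covariate, where Bag3 was 0.38 higher (adjusted p = 0.238) and Hspa9 0.33 (adjusted p = 0.0939), Dnajc2 had an adjusted p of 0.306 and Bag6 of 0.254. They were also lost when only the XY- and XY-sry arrays were fitted, with adjusted p from 0.0609 to 0.157. In the 6 comparisons other than these 2 and the interaction, 0 of 63 partners passed.

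Genes that respond to handling and markers of other cell types were read beside the members. Of 10 early response genes 8 were tested, and 4 of them, Jun, Junb, Btg2 and Nr4a1, fell with Sry, beside 6.56% of all probe sets that passed in either direction. The same 4 fell within XY-, beside 8.64% of all probe sets that passed, and 0 of 8 passed within XX, beside 0.742% of all. The test of the difference between the complements passed for Junb and Btg2 (adjusted p = 0.0405 for both), beside 1.29% of all. The mean of the 8 relative to their average lay between 0.05 and 0.09 in XX, -0.16 and 0.05 in XXsry, 0.10 and 0.24 in XY- and -0.21 and -0.14 in XY-sry, and its r with the mean of the members was -0.15 (n = 12). Fat markers (2 of 4 tested) were highest in the second XXsry mouse, at 1.27 above their average against -0.82 to 0.56 elsewhere, and had r = -0.67 with the members. The mean of the neutrophil markers (4 of 4 tested) lay between -0.09 and 0.98 in XX and 0.22 and 1.73 in XY-. It lay between -1.47 and 0.11 in XXsry and -1.23 and 0.22 in XY-sry, with r = -0.33. The median difference of these markers was -1.206 for mice with against mice without Sry, and 0 of 4 passed. The parathyroid markers Pth and Chga (2 of 3 tested) rose with Sry, by 1.02 ± 0.18 and 0.63 ± 0.12 (SE), with r = 0.07 for their mean. B cell markers (3 of 4 tested) had r = 0.01, and 1 of them, Ms4a1, was lower with Sry (-0.587 ± 0.125, SE, adjusted p = 0.021). The r was -0.13 for macrophage and dendritic cell markers and 0.21 for thymic epithelium markers (5 of 5 tested in each). In both lists 0 passed for mice with against mice without Sry. Of the 3 red cell markers 0 were tested. The actin 3' minus 5' signal, a measure of RNA integrity, was 0.76, 0.66 and 0.77 in XX, 0.71, 0.76 and 0.72 in XXsry, 0.69, 0.51 and 0.68 in XY- and 0.83, 0.74 and 0.80 in XY-sry. The 3 XY-sry mice lay above the 3 XY- mice, and the second XY- mouse was the lowest of the 12. With this signal as a covariate, the count over all probe sets fell from 1549 to 54 within XY- and from 232 to 1 for the interaction. The part of these signals in the spread of the members was not tested.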

How the data were processed

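Thymus RNA of 12 mice was measured on one-colour Affymetrix arrays. The deposited values are log2 intensities per probe set that the authors made with RMA, per the submitters' processing notes (no version named). The 64 control probe sets were left out, and the 17925 whose mean log2 value reached 5 were fitted with limma 3.58.1 in R 4.3.3, with 4 group means and moderated variances. P-values were adjusted by Benjamini-Hochberg over all of them, and 0.05 was the threshold. The script was tested on simulated data. The members and lists were chosen with earlier results of these data known. Named were all members, partners past the threshold (at most 4 per list and direction), the 5 genes nearest in pattern to Hspa1b, Hspa8 and Hspd1, and label checks. Intervals are 95%. Nothing in the labels ties equal replicate numbers to each other. The labels name biological replicates only. The p-values set group differences against the variation between arrays of the same group, in which mouse and technical variation cannot be told apart. Alternatives changed the filter, normalization, variance prior, array weights, threshold, covariates, block and arrays. Per the labels' protocols, cRNA was made from 10 µg of RNA. Whole-tissue RMA values are relative, so levels of different genes were not compared. Mean levels served for the minimum of 5 and for the choice of each gene's lead probe set.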

Additional observations from a re-analysis of the deposited data

Results flagged for a closer look

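3 partner genes passed the test of whether the XX and XY- complements differ in their response to Sry (limma, adjusted over 17925 probe sets), 4.76% of the 63 tested beside 1.29% of all. They are given as the XX minus XY- difference without Sry minus the same difference with Sry. It was 0.363 ± 0.078 (SE) for Hspa9, with group means of 8.69 in XX, 8.63 in XXsry, 8.41 in XY- and 8.71 in XY-sry (adjusted p = 0.0488). It was 0.387 ± 0.078 for Canx, the lectin chaperone calnexin, with means of 9.98, 9.78, 9.74 and 9.92 in the same order (adjusted p = 0.0405). It was 0.55 ± 0.12 for Pdia3, a disulfide isomerase that works with calnexin, with means of 9.53, 9.14, 9.26 and 9.42 (adjusted p = 0.046). Leaving out 1 array at a time kept the call in 1 of 12 cases for Hspa9, 3 of 12 for Canx and 2 of 12 for Pdia3. In these fits the count over all probe sets lay between 0 and 451, against 232 with all arrays. Over 22 alternatives the difference lay between 0.33 and 0.42 for Hspa9, 0.32 and 0.43 for Canx and 0.48 and 0.64 for Pdia3. All 3 calls were lost with the actin 3' minus 5' signal as a covariate (adjusted p = 0.227 for Hspa9, 0.293 for Canx and 0.321 for Pdia3), without the filter on low values (0.133, 0.103 and 0.0822) and with 1 probe set per gene (0.0902, 0.0827 and 0.0892). The actin signal was higher in the 3 XY-sry mice than in the 3 XY- mice, and the covariate fit left differences of 0.39, 0.32 and 0.49. No member was among them, and with 3 mice per group single outlying mice could not be tested.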

How the results depend on the processing

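In the limma fits, the count of member probe sets past the threshold was 0 in all 9 comparisons, and it stayed at 0 under every alternative except the following. With limma's array weights it was 3 of 21 for mice with against mice without Sry, 6 within XY-, 4 for XX against XY- without Sry and 5 for XXsry against XY-, while the shares of all probe sets called rose to 24.3%, 23.7%, 8.24% and 23.1%. For mice with against mice without Sry, a threshold of 0.1 gave 1 (Hspa1a), and the actin covariate gave 1, the Hsp90aa1 probe set 1437497_a_at (0.56, adjusted p = 0.0346); the cause was not tested. Leaving out each array in turn gave 0 to 1 within XY-, where Hspa1a passed without the first XXsry mouse (0.68, adjusted p = 0.0427) and 1431182_at of Hspa8 without the second. Neither mouse belongs to the groups compared, and both differences were unchanged. With the replicate number as a block the count stayed at 0 in each comparison. Same-numbered arrays correlated between -0.08 and 0.31 in 18 pairs, 8 of them over 0.1. The highest r were between the XX and XY- groups, for replicate 2 (0.306) and replicate 3 (0.292). In both groups the second mouse was also the highest for 8 of 9 chaperones, and the third the lowest for 9 and 6. What these arrays share was not tested. The labels do not tie equal numbers to each other, so the numbers were not taken as pairs. The number of arrays limits the precision: the median SE over all tested probe sets was 0.0547 for a difference of 6 against 6 arrays and 0.0774 for 3 against 3.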
